A study of Mus musculus with 5 samples.

Results

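The 10 genes described here mark the unfolded protein response and the response to amino acid shortage in mouse retina. They are the endoplasmic reticulum (ER) chaperone genes Hspa5, Hsp90b1, Dnajb9 and Sdf2l1, the ER degradation gene Herpud1, the transcription factor genes Xbp1 and Atf4, and 3 genes that ATF4 is known to induce, Ddit3, Trib3 and Asns. They were chosen by name, with earlier results of these data known. Every probe set, a set of array probes against 1 transcript, with exactly 1 of these symbols was taken, which gave 22 of 45101 probe sets and 10 of 18193 genes on the array. The probe set of highest mean stood for the gene, and all 10 genes were among the 10916 bright enough to be tested. None of the 10 passed the test of diabetic against control retina. In that test, 9 of the 10 differences had a 95% interval inside 0.5 log2 units, or 1.41-fold, in either direction. Intervals of other probe sets, here and below, are from a separate fit of single probe sets. They reached past 0.5 in several of the genes. Asns was the only gene of the 10 with higher signal in all 3 diabetic pools than in both control pools, where 9.99% of all tested genes were so placed.

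Total retinal RNA was hybridised to 5 Affymetrix arrays, 1 array per pool of mice. Diabetic replicates 1 and 2 were each 4 retinas of 2 mice given streptozotocin, which destroys the insulin-producing beta cells of the pancreas, 5 weeks into diabetes. Diabetic replicate 3 was 6 retinas of 3 mice with experimentally induced diabetes of 3 to 4 weeks, and the agent was not named for that pool. Both control pools were 4 retinas of 2 untreated mice each, matched in age to the diabetic animals and with normal blood glucose. Strain, sex and age of the mice were not given in the sources used here. Each pool mixed its animals, so that a p-value compares pools and the spread between single mice was not measured. In whole retina, fewer cells of a type and less RNA per cell cannot be told apart.

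Secreted and membrane proteins fold in the ER with the help of chaperones. When unfolded proteins build up, the sensors IRE1, PERK and ATF6 signal to the nucleus: IRE1 splices Xbp1 mRNA into the form that encodes an active factor, ATF6 is cut to release a factor that induces chaperone genes, and PERK phosphorylates the translation factor eIF2alpha. Phosphorylated eIF2alpha lowers protein synthesis in general but raises the translation of ATF4, and the kinase GCN2 does the same when amino acids run short, so that ATF4 targets report both kinds of stress. Photoreceptors make large amounts of the membrane protein rhodopsin and place a steady load on this pathway.

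The arrays carried the markers of retina. All 5 rod markers were above the dim limit, the level that separated the upper 60% of genes from the rest, with a summed signal between 435308 and 508724. Cone, bipolar, amacrine and horizontal, ganglion cell and Muller glia markers were also all above that limit, and 0 of 5 lens markers were. The 6 markers of the retinal pigment epithelium, of which Best1 lay below the limit, summed to 47625, 73654 and 47463 in diabetic replicates 1 to 3 and to 91688 and 137249 in control replicates 1 and 2, so that the groups did not overlap. The 5 melanosome markers, with Tyr and Mlana below the limit, did not separate the groups. They summed to 22144, 2672 and 13660 in diabetic replicates 1 to 3 and to 4684.5 and 18348 in control replicates 1 and 2. The 7 skeletal muscle markers, 4 of them above the limit, summed to 54880 in diabetic replicate 3 and 35327 in control replicate 2, against 1444 to 2453 in the other 3 arrays. Diabetic replicate 2 had a 3' to 5' signal ratio of 4.32 on the beta-actin control probe sets, against 2.01 to 2.71 in the other arrays. The part of these features in the differences between pools was not tested.

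The ER chaperone genes and Herpud1 are described first. Many genes of this response carry the ER stress element, bound by ATF6 with NF-Y, or a shorter form, ER stress element II, and the promoters of Hspa5, Hsp90b1 and Herpud1 are shown because they held such letters. Promoter windows from 250 bases before to 50 after the start site, from RefSeq on GRCm38.p6, were searched on both strands for the letters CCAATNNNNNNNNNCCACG and ATTGGNCCACG. Of 32851 such windows, 0.119% held the first motif and 0.0365% the other. The fixed letters of each match are in capitals. Each stretch is written along the gene's strand, so that a match on the opposite strand appears as CGTGG and ATTGG.
Hspa5, chr2:34772000-34772059, plus strand: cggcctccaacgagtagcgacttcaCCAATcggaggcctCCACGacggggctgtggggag
Hsp90b1, chr10:86705525-86705664, minus strand: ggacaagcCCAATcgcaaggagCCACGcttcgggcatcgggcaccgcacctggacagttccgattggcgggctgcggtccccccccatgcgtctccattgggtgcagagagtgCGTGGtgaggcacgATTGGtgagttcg
Herpud1, chr8:94386304-94386393, plus strand: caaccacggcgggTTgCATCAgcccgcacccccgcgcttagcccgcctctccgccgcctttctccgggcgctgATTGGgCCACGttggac
The Hspa5 match began 65 bases before the start site, and Hsp90b1 had a pair of matches, 212 and 107 bases before it. Herpud1 held the shorter form 52 bases before the start site and, 112 bases before it, a match to the amino acid response element that is described with the ATF4 targets. No match to either ER stress element was in the windows of the other 7 genes.

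Hspa5 encodes BiP, the main ER Hsp70 chaperone, which also holds the stress sensors inactive. Its signal was 39073, 40803 and 46594 in diabetic replicates 1 to 3 and 41389 and 43366 in control replicates 1 and 2. Diabetic pools held both the lowest and the highest value, and the groups overlapped. On the log2 scale of signal plus a pseudocount of 120.6, used for all differences here, diabetic minus control was -0.01 (SE 0.09, 95% interval -0.21 to 0.19). The other Hspa5 probe sets were at 11310, 14947 and 19204 against 14884 and 21875, a difference of -0.28 (95% interval -0.80 to 0.23), and at 4563, 5858 and 5267 against 6448 and 5718, a difference of -0.22 (-0.52 to 0.08). Diabetic replicate 1 was the lowest array in all 3 probe sets, and which array was highest differed between them.

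Hsp90b1 encodes GRP94, the Hsp90 chaperone of the ER. Its signal was 28911, 38142 and 36536 in diabetic replicates 1 to 3 and 38059 and 39172 in control replicates 1 and 2. Diabetic replicate 1 stood below the other arrays, diabetic replicate 2 lay between the controls, and the difference was -0.17 (SE 0.11, 95% interval -0.43 to 0.09). Without diabetic replicate 1 it was -0.05. The other probe set of Hsp90b1 read 5803, 4731 and 5538 against 6143 and 6408, lower in all 3 diabetic pools than in both controls, with a difference of -0.23 (95% interval -0.50 to 0.04). There diabetic replicate 2, not replicate 1, was the lowest, so the probe sets gave the arrays different orders.

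Dnajb9 encodes ERdj4, an ER co-chaperone of BiP and a well-known target of spliced XBP1. Its signal was 12040, 15630 and 13295 in diabetic replicates 1 to 3 and 13576 and 14747 in control replicates 1 and 2. The diabetic pools held the lowest and the highest value, and the difference was -0.06 (SE 0.12, 95% interval -0.32 to 0.20).

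Sdf2l1 encodes an ER protein that works with BiP co-chaperones and is readily induced by ER stress. Its signal was 1070, 882 and 978 against 862 and 967. The gene lay close to the dim limit of 9.70 on the log2 scale, with a mean of 10.10 in diabetic pools (SD 0.12, n = 3) and 10.01 in control pools (SD 0.10, n = 2), and the groups overlapped. The difference was 0.08 (SE 0.18), with an interval from -0.33 to 0.49. Dnajb9 and Sdf2l1 had 1 probe set each, so no other probe set was at hand to set beside these values.

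Herpud1 encodes a ubiquitin-like membrane protein of ER-associated degradation, which removes misfolded proteins. Its signal was 17533, 13125 and 17204 in diabetic replicates 1 to 3 and 16011 and 15645 in control replicates 1 and 2. Diabetic replicate 2 was the lowest array and the other diabetic pools were the highest, which gave a mean difference of -0.00056 (SE 0.13, 95% interval -0.29 to 0.29). The other Herpud1 probe set read 10806, 8273 and 11104 against 10291 and 9224, a difference of 0.03, again with diabetic replicate 2 the lowest. Without that array, Herpud1 differed by 0.13.

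Both transcription factor genes were among the steadiest of the 10. Xbp1 read 24475, 26801 and 27540 in diabetic replicates 1 to 3, with control replicates 1 and 2 at 24591 and 28322. The control pools differed from each other by 0.20 log2 units, and the groups by -0.0083 (SE 0.09, 95% interval -0.21 to 0.20). The other 3 Xbp1 probe sets differed by 0.04, 0.01 and -0.17, with overlapping groups in each. The activity of XBP1 depends on the splicing of its mRNA, and these probe sets were read as total signal, so spliced and unspliced forms were not told apart.

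Atf4 read 40416, 43919 and 42290 in diabetic replicates 1 to 3, with control replicates 1 and 2 at 41294 and 45565. Its 5 arrays spanned 0.17 log2 units, the narrowest range of the 10 genes, and the difference was -0.04 (SE 0.07, 95% interval -0.21 to 0.13). The other bright Atf4 probe set read 20549, 28631 and 26687 against 29428 and 28516, a difference of -0.21 (95% interval -0.51 to 0.10), with diabetic replicate 1 the lowest. The remaining Atf4 probe set, at signals of 37.4 to 53.4, lay below the dim limit and was not tested. ATF4 is raised mainly through translation of its mRNA, which an array does not read, so its targets were set beside it.

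Many targets of ATF4 carry the amino acid response element, a composite site for ATF4 and C/EBP factors. Its core was searched as TGATGNAA on both strands and was in 3.97% of all promoter windows. Among the 3 target genes it was in the windows of Asns and Trib3, and in the Trib3 and Herpud1 stretches it lies on the opposite strand, so that its reverse complement is in capitals. Both stretches are shown for this match, with the matched letters in capitals.
Asns, chr6:7693210-7693269, minus strand: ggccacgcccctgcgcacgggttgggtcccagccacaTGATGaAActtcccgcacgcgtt
Trib3, chr2:152344027-152344056, minus strand: tagctcaggtTTaCATCAgccgggcgggga
The Asns match began 23 bases before the start site, and the Trib3 match lay 15 bases after it. The core of the unfolded protein response element of XBP1, TGACGTGG, was in 0.676% of windows and in none of the 10 genes. The windows of Dnajb9, Sdf2l1, Xbp1, Atf4 and Ddit3 held none of the 4 motifs, which says only that these letters are not within the bases searched.

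Asns encodes asparagine synthetase, which makes asparagine from aspartate and glutamine and is a classical readout of amino acid shortage. Its signal was 6698, 6326 and 7115 in diabetic replicates 1 to 3 and 5589 and 5682 in control replicates 1 and 2. All 3 diabetic pools lay above both controls, and the controls were close together. On the log2 scale the means were 12.74 ± 0.083 (SD, n = 3) and 12.49 ± 0.017 (SD, n = 2), a difference of 0.25 (SE 0.10, 95% interval 0.03 to 0.46), or 1.19-fold (1.02 to 1.38). Fitted with all 10916 genes it did not pass (adjusted p = 0.999 by limma with Benjamini-Hochberg adjustment), and by unadjusted p it ranked 213 of 10916. The other Asns probe set read 4416, 4661 and 5392 against 4067 and 4086, a difference of 0.23 (95% interval -0.05 to 0.51), again without overlap. Diabetic replicate 3, with the shortest diabetes and high muscle marker signal, was the highest array in both probe sets. Without diabetic replicate 3 the Asns difference was 0.20, and without both arrays of high muscle signal it was 0.22. In a fit of all 27022 bright probe sets each by itself, 0 passed at an adjusted p of 0.05 (limma) and 778 had an unadjusted p under 0.05. The pigment epithelium markers also separated the groups, lower in all 3 diabetic pools, while the melanosome markers did not. The part of either in the Asns difference was not tested.

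Trib3 encodes a pseudokinase that binds AKT and ATF4 and dampens their activity. Its signal was 3203, 2244 and 2997 in diabetic replicates 1 to 3 and 2768 and 3340 in control replicates 1 and 2. It had the widest range of the 10 genes, 0.55 log2 units, with diabetic replicate 2 the lowest array. The difference was -0.12 (SE 0.17, 95% interval -0.51 to 0.26), and it was 0.03 without diabetic replicate 2. The other Trib3 probe set read 2505, 2015 and 2744 against 3072 and 3302, lower in all 3 diabetic pools, with a difference of -0.39 (95% interval -0.75 to -0.03). That probe set did not pass either (limma, Benjamini-Hochberg adjusted p = 0.999935), and the 2 probe sets ordered diabetic replicate 1 and the controls differently.

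Ddit3 encodes CHOP, the factor that links lasting ER stress to cell death. Its signal was 12248, 12179 and 13935 in diabetic replicates 1 to 3 and 12902 and 13267 in control replicates 1 and 2. The controls lay between the diabetic pools, and the difference was -0.04 (SE 0.09, 95% interval -0.24 to 0.17). A dimmer Ddit3 probe set read 1070, 883 and 1069 against 905 and 953, a difference of 0.10 (95% interval -0.32 to 0.52), with diabetic pools again both lowest and highest.

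**Figure D1:**
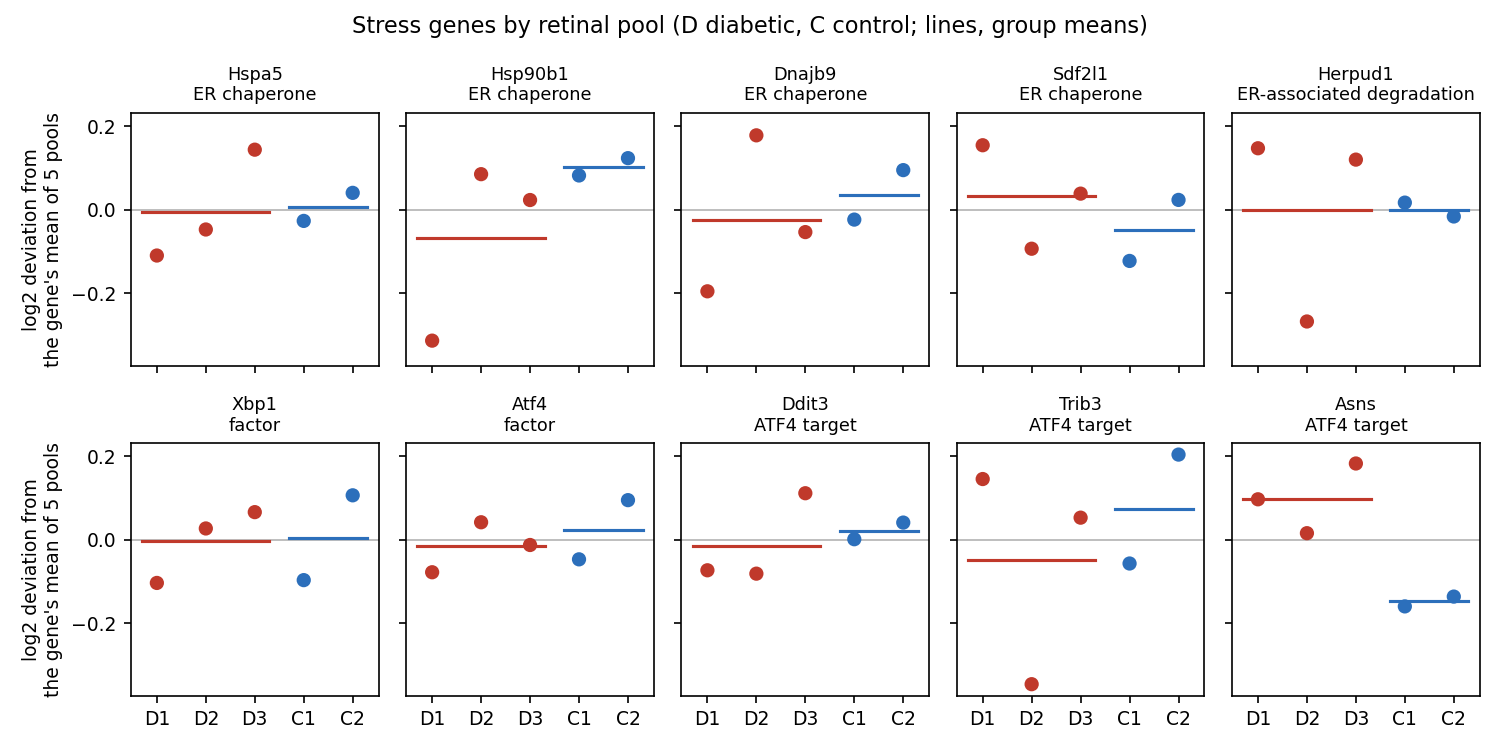
Signal of the 10 genes in each of the 5 pools, as log2 units above or below the gene's own mean over the pools, with diabetic pools in red, control pools in blue and a short line at each group mean. Asns is the panel in which all 3 diabetic points lie above both control points, and Trib3 has the widest spread, 0.55 log2 units.

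Counted together, 2 of the 10 genes were higher in diabetic pools on average (Asns and Sdf2l1) and 8 were lower, with a median difference of -0.02, against 0.006 over all 10916 tested genes. The adjusted p was 0.999 for each of the 10 (limma, Benjamini-Hochberg), and 0 of the 10 passed, where 0 of 10916 genes (0%) did. At an unadjusted p under 0.05, 1 of the 10 was higher, Asns, where 196 of the tested genes, 1.8%, were, and 0 were lower, where 174, 1.59%, were. Asns was also the only gene of the 10 whose groups did not overlap with diabetic pools higher, where 9.99% of tested genes were so placed, and 0 of 10 had groups apart with diabetic pools lower, where 8.15% were. The share of the 10 genes with groups apart was thus near that of all tested genes in both directions.

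The split of 2 higher and 8 lower rested on small differences and on the scaling. With each array centred on its median, the tested genes as a whole shifted up by a median of 0.05, 65.8% of them were higher in diabetic pools against 51.9% before, and 7 of the 10 genes were higher and 3 lower. Leaving out control replicate 2 also gave 7 higher and 3 lower, array weights gave 6 higher and 4 lower, and leaving out diabetic replicate 1 or diabetic replicate 2 gave 5 of each. Asns and Sdf2l1 had a difference above 0 and Hsp90b1 one below 0 in all 15 alternatives run, although Sdf2l1 came to 0.0097 without control replicate 1 and 0.022 without diabetic replicate 1, and the other 7 changed sign in 1 or more of them.

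**Figure D2:**
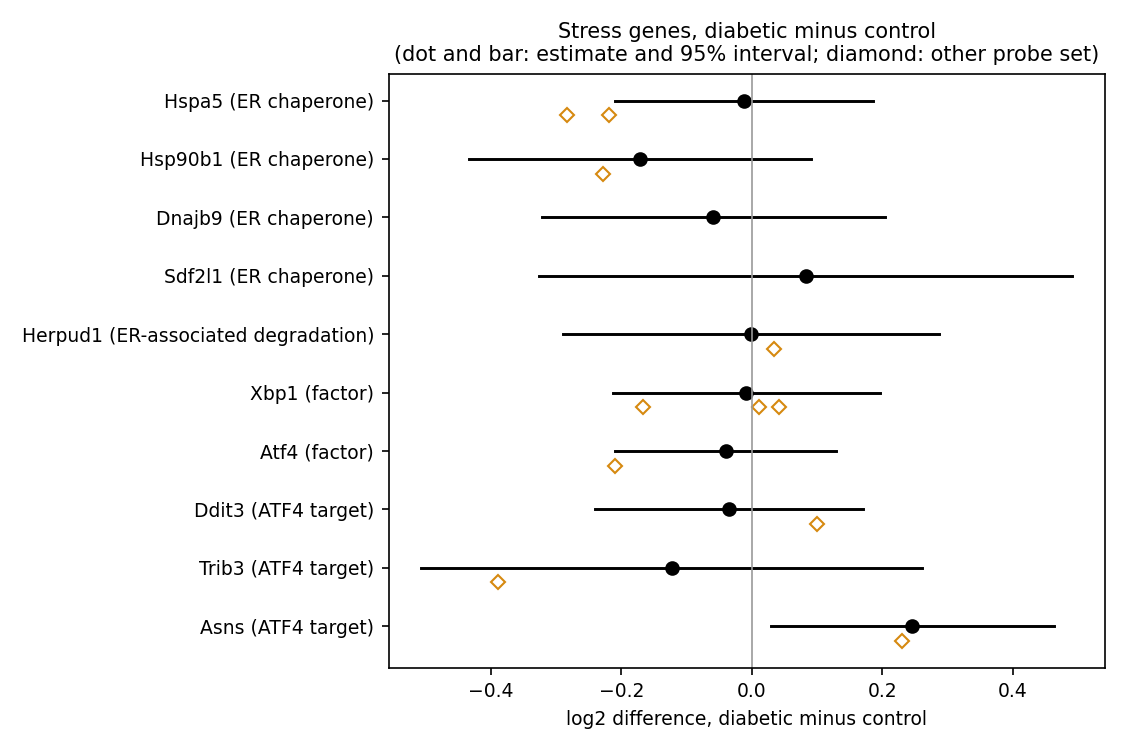
Diabetic minus control difference of each gene on the log2 scale, with its 95% interval, and diamonds for the gene's other probe sets above the dim limit. The Asns interval, 0.03 to 0.46, is the only one that does not cross 0, and the diamonds show that the probe sets of Trib3 and Hspa5 lie to the left of the point that stands for the gene.

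The plot of differences by gene shows how closely the probe sets that stood for the 10 genes bound the change that went undetected. Their median absolute difference was 0.05, against 0.08 over all tested genes, and their median range over the 5 arrays was 0.31, against 0.32. In the fit of genes all 10 intervals of these probe sets lay inside 1 log2 unit. There Trib3, from -0.51 to 0.26, was the gene that reached past 0.5. The other probe sets have intervals from the fit of all 27022 bright probe sets, which gave the chosen probe sets slightly wider intervals too. In it the only probe set of Sdf2l1 ran from -0.34 to 0.51. Intervals of other probe sets reached past 0.5 for Hspa5, Hsp90b1, Xbp1, Atf4, Ddit3, Trib3 and Asns. They reached as far as -0.80 for Hspa5 and -0.75 for Trib3. For Hsp90b1, Atf4 and Asns they did so narrowly, at -0.501, -0.51 and 0.51. Among all 22 probe sets, 7 were higher and 15 lower in diabetic pools, with 2 non-overlapping in each direction: both probe sets of Asns higher, and 1 each of Hsp90b1 and Trib3 lower. The like shares over all probe sets were not counted. Over all tested genes, 9.99% were non-overlapping and higher and 8.15% non-overlapping and lower. Of the 8 genes with more than 1 probe set above the dim limit, 3 had probe sets that differed in direction, namely Herpud1, Xbp1 and Ddit3.

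The chaperones and the ATF4 targets did not order the pools in the same way. The 4 chaperone genes lay on average -0.12, 0.03 and 0.04 log2 units from their own means in diabetic replicates 1 to 3 and -0.02 and 0.07 in control replicates 1 and 2. The 3 target genes lay at 0.06, -0.14 and 0.12 and at -0.07 and 0.04. Targets minus chaperones was thus 0.17 in diabetic replicate 1, -0.17 in diabetic replicate 2 and 0.08 in diabetic replicate 3, and -0.05 and -0.03 in the controls. The diabetic pools lay on both sides of the controls, and the sets had the same median difference, -0.04 for the chaperones and -0.04 for the targets. This likeness depended on the choice of probe sets. With the mean of all probe sets the median was -0.11 for the chaperones and 0.03 for the targets. Among the targets Asns alone was higher in every diabetic pool, so the set's mean over its 3 genes, 0.03, and its median differ in sign. With sets of 4 and 3 genes these values are a description of the 5 arrays.

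Across the 10 genes, 7 had their highest value in diabetic replicate 3 (3 genes) or control replicate 2 (4 genes), and none had its lowest value there. These arrays had the high skeletal muscle signal, and its part in the order of the arrays was not tested. The highest and lowest arrays of all tested genes were not counted, so the counts here have no background beside them. Diabetic replicate 1 held the lowest value of 5 genes, Hspa5, Hsp90b1, Dnajb9, Xbp1 and Atf4, and the highest of 2, Sdf2l1 and Herpud1. Diabetic replicate 2, with the high beta-actin ratio, was lowest for Herpud1, Ddit3 and Trib3 and highest for Dnajb9. The differences between pools of 1 group were larger than those between the groups for every gene but Asns: in Hspa5, diabetic replicate 3 lay 0.22 above the mean of the other diabetic pools while the groups differed by -0.01.

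**Figure D3:**
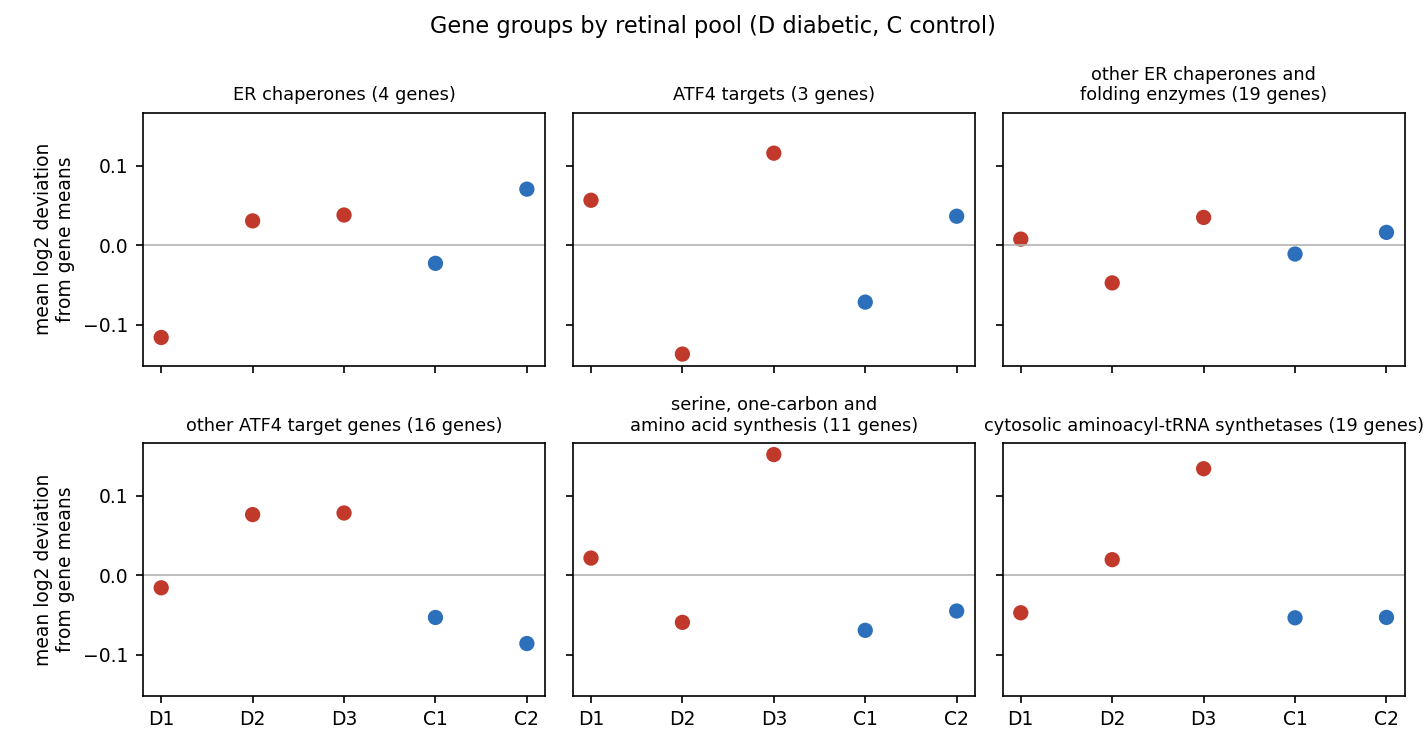
Mean deviation of each gene set from its genes' own means, in log2 units, in the 5 pools, for the 4 ER chaperones and 3 ATF4 targets described here and for 4 larger lists of the same pathways. The targets run from -0.14 in diabetic replicate 2 to 0.12 in diabetic replicate 3, and the tRNA synthetases and the serine and one-carbon genes are highest in diabetic replicate 3.

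The rest of the pathway was read from 7 lists with 112 tested genes, counted once each. These lists too were chosen with earlier results of these data known. None of the 112 passed the test over all genes (limma, adjusted p), and 6 had an unadjusted p under 0.05, 4 higher and 2 lower, beside 1.8% and 1.59% of all tested genes. There were 66 higher and 46 lower, beside 51.9% of all tested genes higher, with a median difference of 0.03. The groups did not overlap in 16 genes with diabetic pools higher and in 9 with diabetic pools lower, beside the 9.99% and 8.15% of all tested genes.

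In the protein folding lists the counts of higher and lower genes were close, but they moved with the scaling and the choice of probe sets. Of 13 sensors, eIF2alpha kinases and their regulators, 7 were higher and 6 lower, from -0.52 to 0.16. In 1 of the 13 all 3 diabetic pools lay below both controls, beside 8.15% of all tested genes. In 1 they lay above both, beside 9.99%. The lowest was Creb3, a membrane-bound factor of the same kind as ATF6, whose signal was 5199, 5058 and 4465 in the diabetic pools and 6065 and 8302 in the controls. It was lower in all 3 diabetic pools, by -0.52 (95% interval -0.85 to -0.20, limma adjusted p = 0.999). Without control replicate 2 the difference was -0.30, without both arrays of high muscle signal it was -0.24, and with the mean of all its probe sets it was -0.06. Ppp1r15a, which encodes GADD34, the phosphatase subunit that reverses eIF2alpha phosphorylation, differed by -0.26 (95% interval -0.58 to 0.06), with overlapping groups, and by -0.14 without control replicate 1. With the mean of all probe sets 5 genes of this list were higher, and with arrays centred on their medians 9 were.

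Of 19 further ER chaperones and folding enzymes, 9 were higher and 10 lower, with a median of -0.0058. Pdia5, a protein disulfide isomerase, was at 11482, 10427 and 10792 in diabetic and 12538 and 13711 in control pools, lower in all 3 by -0.26 (95% interval -0.46 to -0.07). Uggt1, which tags misfolded glycoproteins for another round of folding, was at 4731, 4326 and 4163 against 3489 and 3836, a difference of 0.26 (0.01 to 0.51). The groups did not overlap in either gene, and both had an adjusted p of 0.999 (limma). Of the 19, 3 had groups apart with diabetic pools higher and 2 with diabetic pools lower, beside 9.99% and 8.15% of all tested genes. With the mean of all its probe sets Uggt1 differed by -0.03. In that setting 6 genes of this list were higher, with a median of -0.06. With arrays centred on their medians 11 were higher, with a median of 0.04.

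The degradation and secretory lists held no gene at an unadjusted p under 0.05. Of 16 degradation genes besides Herpud1, 7 were higher and 9 lower, all between -0.22 and 0.06. Edem1, which routes misfolded glycoproteins to degradation, was at the lower end and the ubiquitin-conjugating enzyme gene Ube2j1 at the upper. In 1 of the 16 all 3 diabetic pools lay above both controls and in 0 below both, beside 9.99% and 8.15% of all tested genes. Of 18 translocation and secretory genes induced by XBP1, 7 were higher and 11 lower, between -0.11 and 0.18. Ssr4, a subunit of the translocon-associated complex, marked the lower end, with all 3 diabetic pools below both controls, and the COPII coat gene Sec31a the upper end. In 4 of the 18 secretory genes all 3 diabetic pools lay below both controls, beside 8.15% of all tested genes. In 0 of the 18 they lay above both, beside 9.99%. Counts of higher genes in both lists moved with the scaling. Centring arrays on their medians put 65.8% of all tested genes higher. It also put 13 of the 16 degradation genes and 14 of the 18 secretory genes higher. With the mean of all probe sets 11 of the 18 secretory genes were higher.

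In the 3 amino acid lists most genes were higher, and their difference from the folding lists was not tested. Among 16 further ATF4 targets, 11 were higher and 5 lower, with a median of 0.06, which was 0.019 without diabetic replicate 2 and 0.11 without both arrays of high muscle signal. Slc7a1, the cationic amino acid transporter, read 7642, 9486 and 12197 in diabetic replicates 1 to 3, with control replicates 1 and 2 at 6662 and 6232, a difference of 0.57 (95% interval 0.18 to 0.96). Slc1a4, a transporter of alanine, serine and cysteine, was at 2209, 3150 and 3192 against 2121 and 2002, a difference of 0.43 (0.04 to 0.82). All 3 diabetic pools exceeded both controls for both transporters, diabetic replicate 3 was the highest array and diabetic replicate 1 lay close to control replicate 1 for Slc1a4. Neither passed the test (limma, adjusted p = 0.999 for each). Diabetic pools all exceeded both controls in 3 of the 16 targets, beside 9.99% of all tested genes. They all lay below both controls in 1 of the 16, Atf3 at -0.22, beside 8.15%. Without diabetic replicate 3, Slc7a1 differed by 0.40 and Slc1a4 by 0.34, and without both arrays of high muscle signal by 0.35 and 0.30. With the mean of all probe sets Slc7a1 differed by 0.33 (SE 0.22) and Slc1a4 by 0.30 (SE 0.18).

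Among 11 genes of serine, one-carbon and amino acid synthesis, 9 were higher and 2 lower, with a median of 0.09. Aldh18a1, which starts proline synthesis, was at 8590, 10092 and 9487 against 7343 and 8011, a difference of 0.28 (95% interval 0.06 to 0.51). Psat1, an enzyme of serine synthesis, was at 5911, 5439 and 6380 against 5112 and 4856, a difference of 0.24 (-0.00024 to 0.48). All 3 diabetic pools exceeded both controls for each, as for Asns, and the adjusted p was 0.999 for each (limma). This held for 3 of the 11 genes, beside 9.99% of all tested genes. In 1 of the 11 all 3 diabetic pools lay below both controls, beside 8.15%: Phgdh, also of serine synthesis, at -0.22.

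The 19 cytosolic aminoacyl-tRNA synthetases, enzymes that charge tRNAs and include several known ATF4 targets, counted 16 higher and 3 lower, where 51.9% of all tested genes were higher, with a median of 0.11. None had an unadjusted p under 0.05 in limma. In 5 of the 19 all 3 diabetic pools exceeded both controls, beside 9.99% of all tested genes, among them Lars, at 9349, 9140 and 10174 against 8917 and 7695, and Wars, at 6311, 5992 and 6287 against 5220 and 5673. The exceptions were Qars at -0.24, Vars at -0.13 and Hars at -0.03, chosen for naming from these values. The list was highest in diabetic replicate 3, at 0.13, with 16 of 19 genes above their own means, and lay at -0.05 and 0.02 in diabetic replicates 1 and 2, against -0.05 in each control. Without diabetic replicate 3 the median was 0.06 with 14 of 19 higher, without both arrays of high muscle signal 0.05 with 13, and with the mean of all probe sets 0.04 with 13. The serine and one-carbon list was also highest in diabetic replicate 3, at 0.15, with 0.02 and -0.06 in diabetic replicates 1 and 2 and -0.07 and -0.04 in the controls. Leaving out diabetic replicate 3 gave a median of 0.05, and leaving out diabetic replicate 2 gave 0.16.

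**Figure D4:**
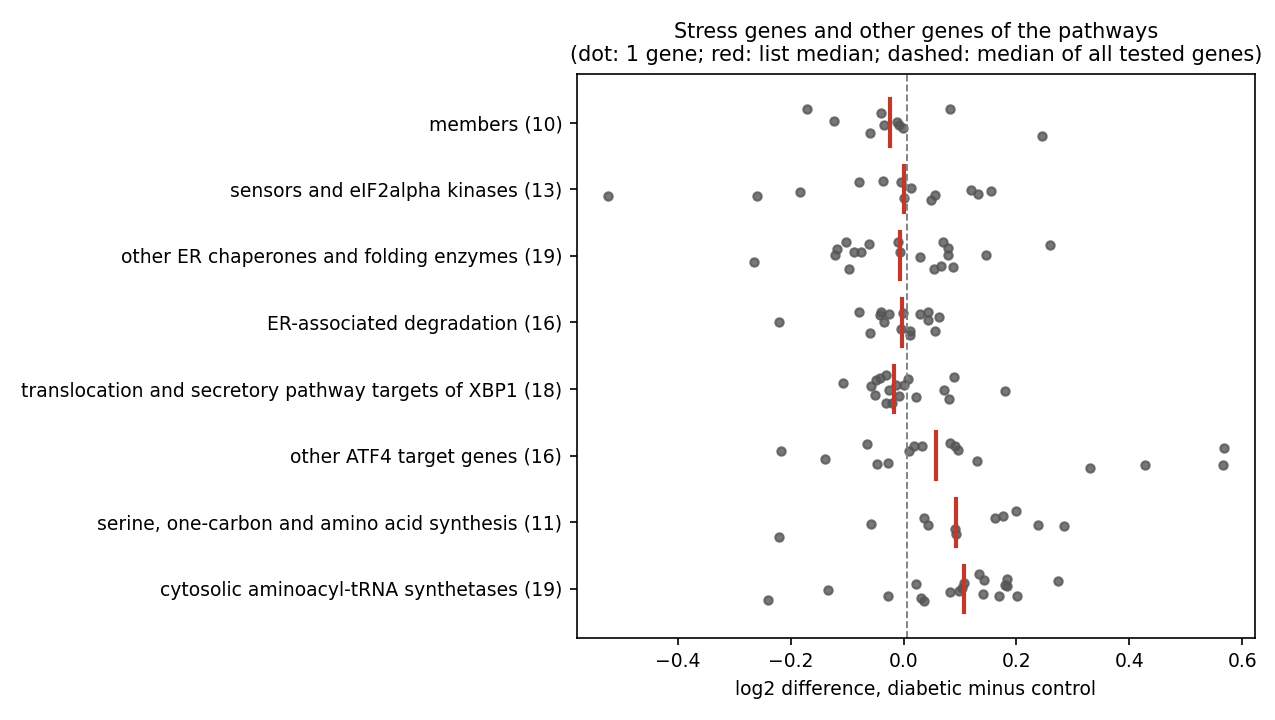
Diabetic minus control difference on the log2 scale for each tested gene, 1 dot per gene, of the 10 genes and the 7 pathway lists, with a red mark at the median of each and a dashed line at the median of all tested genes, 0.006. The synthetase median is 0.11 and that of the serine and one-carbon list 0.09, while those of the folding, degradation and secretory lists lie within 0.02 of 0.

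The plot of lists shows the members in their pathway. Of the lists' promoter windows, 5 of 16 further chaperones held the ER stress element (Calr, Canx, Creld2, Dnajc3 and Pdia6), and the amino acid response element was in 7 of 18 further ATF4 targets and in 5 of 13 synthetases (Aars, Gars, Iars, Tars and Yars). A match describes the letters of the window and was not tied to a difference between pools.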

How the data were processed

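The authors deposited 1 linear signal intensity per probe set and array, and the mean of every array was 2500.0 after trimming 2% at either end. For summarization software and background correction, not given in the sources used here, nothing was assumed. Symbols were updated by Entrez ID, which matched 34741 of 34945 probe sets with 1 symbol. Signals were taken as log2(signal + 120.6), the pseudocount being their 20th percentile, which understates the changes of dim genes. The upper 60% of genes by mean were compared with limma (eBayes with a trend), which left 3 residual degrees of freedom, with p-values adjusted by Benjamini-Hochberg over all tested genes and a threshold of 0.05. The steps were tested on simulated data with planted changes of 1 and 2 log2 units. Those changes were larger than the gene differences given here, so whether differences of this size would be found was not tested. The number of arrays limits the precision, and nothing in the labels says whether pools were hybridised together. The members and lists were chosen with earlier results of these data known. Named genes were all members and, per pathway list, the 2 tested genes of smallest unadjusted p. Atf3, Phgdh, Qars, Vars and Hars were named in addition, picked from their values. Further genes were named for a promoter match or for passing in an alternative. Alternatives covered scaling, pseudocount, filter, probe set choice, variance model, array weights, a replicate block and arrays left out. Promoters were those of RefSeq on GRCm38.p6, 32851 windows of 27025 genes, and protein sequences were not used here. The versions were R 4.3.3, limma 3.58.1 and matplotlib 3.10.9.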

Additional observations from a re-analysis of the deposited data

Results flagged for a closer look

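The beta-actin control probe sets, which the comparisons do not use, gave a 3' to 5' signal ratio of 4.32 in diabetic replicate 2, above the 2.52 and 2.71 of the control arrays and the 2.01 and 2.43 of the other diabetic arrays. The Gapdh ratio was 0.901 in that array, against 0.784 to 0.838 in the others. Diabetic replicate 2 was the lowest array for Herpud1, Trib3 and Ddit3. Without it Herpud1 differed by 0.13 and Trib3 by 0.03, and the part of the ratio in these values was not tested.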

How the results depend on the processing

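None of the 10 genes passed an adjusted p of 0.05 in any of the 15 alternatives, and Asns lay between 0.20 and 0.29 in all of them (limma adjusted p 0.818 to 0.99997). Centring on medians turned Atf4 to 0.0027, Ddit3 to 0.0074, Herpud1 to 0.042, Hspa5 to 0.032 and Xbp1 to 0.035. Array weights turned Ddit3 to 0.0044, Herpud1 to 0.063, Hspa5 to 0.031 and Xbp1 to 0.0053, and the mean of all probe sets turned Ddit3 to 0.032, Herpud1 to 0.017, Uggt1 to -0.035 and Wars to -0.036. Without both arrays of high muscle signal Atf4 was 0.029, Dnajb9 0.015 and Xbp1 0.058. With each array left out in turn, the ranges were -0.11 to 0.031 for Atf4, -0.16 to 0.027 for Dnajb9, -0.45 to 0.0059 for Edem1, -0.074 to 0.13 for Herpud1, -0.085 to 0.041 for Hspa5, -0.25 to 0.026 for Trib3 and -0.11 to 0.093 for Xbp1. The median of the chaperones then ran from -0.082 to 0.024 and that of the ATF4 targets from -0.098 to 0.026. The mean of all probe sets put these medians outside those ranges, at -0.11 and 0.032. In that setting Hspa5 was -0.17, Hsp90b1 -0.20 and Trib3 -0.26, and 4 of the 10 genes were higher and 6 lower. The count of genes past the threshold was 0 to 1 with an array left out (Prss22 without diabetic replicate 2, Spc25 without diabetic replicate 3), 2 without both arrays of high muscle signal (Npl and Spc25) and 2 with the replicate block (Rgr and Spc25), and 0 in the other alternatives. No member was among them. The labels do not say that a replicate number marks a shared litter, batch or day. Only numbers 1 and 2 occur in both groups, so the replicate block takes diabetic replicate 3 out of the comparison, and Asns was 0.20 with it. Alternatives for the lists, for the named pathway genes and for single probe sets were added after seeing the data. Another background correction could not be run on summarised values.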
